A study of Mus musculus with 6 samples.

Results

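Cytokines and chemokines are small secreted proteins by which cells signal to their neighbours and to the immune system, and 10 of their genes were followed in cultured mouse chondrocytes: Il6, Lif, Il11, Csf1, Ccl2, Ccl7, Cxcl1, Cxcl5, Cxcl12 and Cxcl14. They were chosen by gene symbol, with earlier results of these data known, and are 10 of the 35976 rows of the count table. Of these, 9 passed the filter on low counts and are among the 13761 genes tested, and Il6 did not pass it. The cells were embryonic (day 18.5) chondrocytes of a C57BL/6 x 129S4/SvJae background, taken from hind limb articular cartilage and grown in a monolayer on plastic for 16 population doublings. All 6 libraries, controls included, came from cells kept in doxycycline at 2 µg/ml, which switches on a transgenic copy of the histone H3.3. In the H3K9M group (3 libraries, replicates 1, 3 and 5) the transgene carries methionine for lysine at residue 9, and the label describes H3K9 methylation as suppressed. In the H3WT group (3 libraries, replicates 1, 2 and 4) the transgene is wild-type H3.3. The labels name neither the promoter of the transgene nor whether libraries came from separate animals, so p-values measure the spread between these libraries, which may be in part technical.

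The 10 genes fall into families with known roles. IL-6, LIF and IL-11 signal through the shared receptor chain gp130 to the kinases of the JAK family and the transcription factor STAT3, and in cartilage IL-6 and LIF are known for driving matrix breakdown. CSF1 supports macrophages and osteoclast precursors, CCL2 and CCL7 draw monocytes, CXCL1 and CXCL5 draw neutrophils, and CXCL12 and CXCL14 are made by resting stromal tissues. In fibroblasts and chondrocytes many of these genes are induced through NF-kB, a transcription factor activated by interleukin-1, tumour necrosis factor and Toll-like receptors.

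Proximal promoters are shown for 5 of the genes: Cxcl1, whose groups did not overlap, Il6, which holds the same kind of motif and had almost no reads, Csf1, the gene with the highest level, and Cxcl12 and Cxcl14, which had the same highest pair of libraries. Each is the 250 bases before the RefSeq start site on GRCm38.p6, the assembly that the submitters' notes name as mm10, read 5′ to 3′ on the gene's strand. Capitals mark matches, on either strand, to the NF-kB consensus, to the AP-1 motif TGANTCA or to the STAT motif TTCNNNGAA. Matches on opposite strands can be the same bases read both ways, as for STAT in Cxcl14 and AP-1 in Il6. In Cxcl1 the matches on the opposite strands overlap but start at bases -71 and -70 from the start site.

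Cxcl1: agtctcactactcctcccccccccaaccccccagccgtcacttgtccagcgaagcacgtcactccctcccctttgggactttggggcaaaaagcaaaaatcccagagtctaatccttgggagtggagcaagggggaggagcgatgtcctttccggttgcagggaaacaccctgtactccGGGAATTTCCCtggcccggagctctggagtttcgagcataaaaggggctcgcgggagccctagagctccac
Il6: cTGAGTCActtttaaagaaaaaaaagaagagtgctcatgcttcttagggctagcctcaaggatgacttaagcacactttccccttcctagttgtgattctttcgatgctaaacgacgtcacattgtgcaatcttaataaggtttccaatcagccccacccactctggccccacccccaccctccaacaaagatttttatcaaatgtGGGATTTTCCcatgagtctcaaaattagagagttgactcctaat
Csf1: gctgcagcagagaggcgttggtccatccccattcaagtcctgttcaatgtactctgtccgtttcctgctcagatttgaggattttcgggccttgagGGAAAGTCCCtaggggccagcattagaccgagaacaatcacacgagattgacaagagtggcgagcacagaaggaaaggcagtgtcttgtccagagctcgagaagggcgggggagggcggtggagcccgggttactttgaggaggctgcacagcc
Cxcl12: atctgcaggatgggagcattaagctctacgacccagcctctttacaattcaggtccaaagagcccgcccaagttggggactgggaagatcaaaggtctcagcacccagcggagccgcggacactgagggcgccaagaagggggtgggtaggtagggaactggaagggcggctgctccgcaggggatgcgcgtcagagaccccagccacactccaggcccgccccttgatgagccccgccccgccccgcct
Cxcl14: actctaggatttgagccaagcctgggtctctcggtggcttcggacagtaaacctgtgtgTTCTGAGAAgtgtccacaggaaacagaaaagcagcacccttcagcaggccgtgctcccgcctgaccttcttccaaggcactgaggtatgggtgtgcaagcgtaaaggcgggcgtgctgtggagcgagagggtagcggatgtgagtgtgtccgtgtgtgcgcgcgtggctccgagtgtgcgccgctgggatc

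The Cxcl1 window is chr5:90890995-90891244 on the plus strand, that of Il6 is chr5:30012864-30013113 on the plus strand, and that of Csf1 is chr3:107760470-107760719 on the minus strand. The Cxcl12 window is chr6:117168285-117168534 on the plus strand and the Cxcl14 window chr13:56296552-56296801 on the minus strand. RefSeq entries were matched for 7 of the 10 genes (8 promoters, 2 of them of Il11), and Cxcl5, Ccl2 and Ccl7 were not matched. The NF-kB consensus was found in 4 of the 8 promoters, those of Cxcl1, Il6, Csf1 and Lif, and in 7.25% of all 32851 promoters of this length. The Cxcl1 match GGGAATTTCC starts at base -71, the Il6 match GGGATTTTCC at base -44 and the Csf1 match, read on the gene's strand as GGAAAGTCCC, at base -154, all counted from the start site. The AP-1 motif was in 3 of the 8 (Il6, Lif and 1 promoter of Il11), against 6.75% of all promoters, and the STAT motif in 1 (Cxcl14), against 7.02%. The TATA box letters TATAAA were in 0 of the 8 and in 12.4% of all promoters. Cxcl12 held none of these letters in this window. A match is only a description of the sequence.

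Depth was similar across the series, with 15113675 to 19606082 counts per library. Of 12 chondrocyte markers 11 were in the table and each had reads in every library, with summed levels of 6682 to 11005 CPM (the count of a gene relative to the TMM-adjusted size of its library) in H3K9M and 6556 to 18597 CPM in H3WT. The highest sum was in H3WT replicate 2, which also had the lowest sum of 10 fibroblast markers (24003 CPM against 34624 to 49762 CPM in the other 5). Markers of that list went both ways in this library. Col1a1, Col1a2, Col3a1, Fn1, Thy1 and Postn were at their lowest there, while Pdgfra was at its highest (242.8 CPM). Lum (100.6 CPM) and Dcn (142.8 CPM) were exceeded only in H3K9M replicate 3. Of 13 macrophage and blood markers 8 had no count in any library, among them the defining genes Ptprc, Adgre1 and Itgam. The list summed to 11.4 to 22.6 CPM in H3K9M, highest in replicate 3, and to 5.83 to 13.5 CPM in H3WT. All 4 tested genes of the list, Cd68, Csf1r, Lyz2 and Cd14, had a higher mean in H3K9M. Of these, 0 had an unadjusted p under 0.05 (edgeR). Cd68 had 2.61, 12.8 and 4.74 CPM in H3K9M and 0.618, 3.37 and 2.00 CPM in H3WT, with overlapping groups. Of 8 endothelial markers Cdh5, Tie1 and Emcn had no count, while the list summed to 2.55 to 3.67 CPM in H3K9M and to 4.27 to 7.84 CPM in H3WT, so every H3K9M library was lower. Egfl7, the 1 tested gene of that list, had 1.67, 1.498 and 2.91 CPM against 3.09, 3.42 and 6.95 CPM (log2 fold change -1.14, adjusted p 0.433, edgeR). The part of these markers in the results was not tested. Skeletal muscle markers summed to 156, 223 and 21.02 CPM in H3K9M replicates 1, 3 and 5 and to 12.8 to 31.7 CPM in H3WT, and their part in the results was not tested. In bulk RNA, fewer cells of a type and less RNA per cell cannot be told apart.

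Among the cytokine and chemokine genes, 8 of the 9 tested genes had a lower mean in H3K9M and 1, Lif, a higher one, where 50.4% of all 13761 tested genes had a log2 fold change below 0. By edgeR's quasi-likelihood test 0 of the 9 passed the adjusted threshold of 0.05, as did 0% of all tested genes. DESeq2 called 1 of the 9, Cxcl5, and 2.42% of the genes to which it gave an adjusted p, and limma-voom called 0 of the 9 and 0 of all genes. At an unadjusted p under 0.05 there were 2 of the 9, the neutrophil chemokines Cxcl5 and Cxcl1, both lower in H3K9M. Of all tested genes 12.2% had such a p, 5.77% with the lower mean in H3K9M and 6.42% with the higher mean. For the same 2 genes the 3 H3K9M libraries were all below the 3 H3WT libraries, which held in that direction for 8.68% of all tested genes. The median log2 fold change of the 9 genes was -1.03, against -0.003 over all tested genes. Since the genes were chosen with earlier results of these data known, these counts and the median are descriptions only. The 11 chondrocyte markers were all lower in mean in H3K9M with the same median of -1.03, 2 of them at an unadjusted p under 0.05 and 0 past the adjusted threshold (edgeR), and each had overlapping groups. Their part in the values of the 9 genes was not tested. The number of the 9 with an unadjusted p under 0.05 in edgeR depended on single libraries. It was 4 without H3K9M replicate 1 and 1 without H3K9M replicate 3 or H3WT replicate 4. It stayed at 2 without H3WT replicate 1. Without H3K9M replicate 5 it was also 2, with Lif (p 0.026) in place of Cxcl1 (p 0.0639). Without H3WT replicate 2 it was 6, in a fit where 17.1% of all genes had such a p. For the other fits with a library left out the share of all genes was not counted. With 3 libraries against 3, the smallest two-sided p of an exact permutation test is 0.1, and no such test of a single gene was made.

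**Figure D1:**
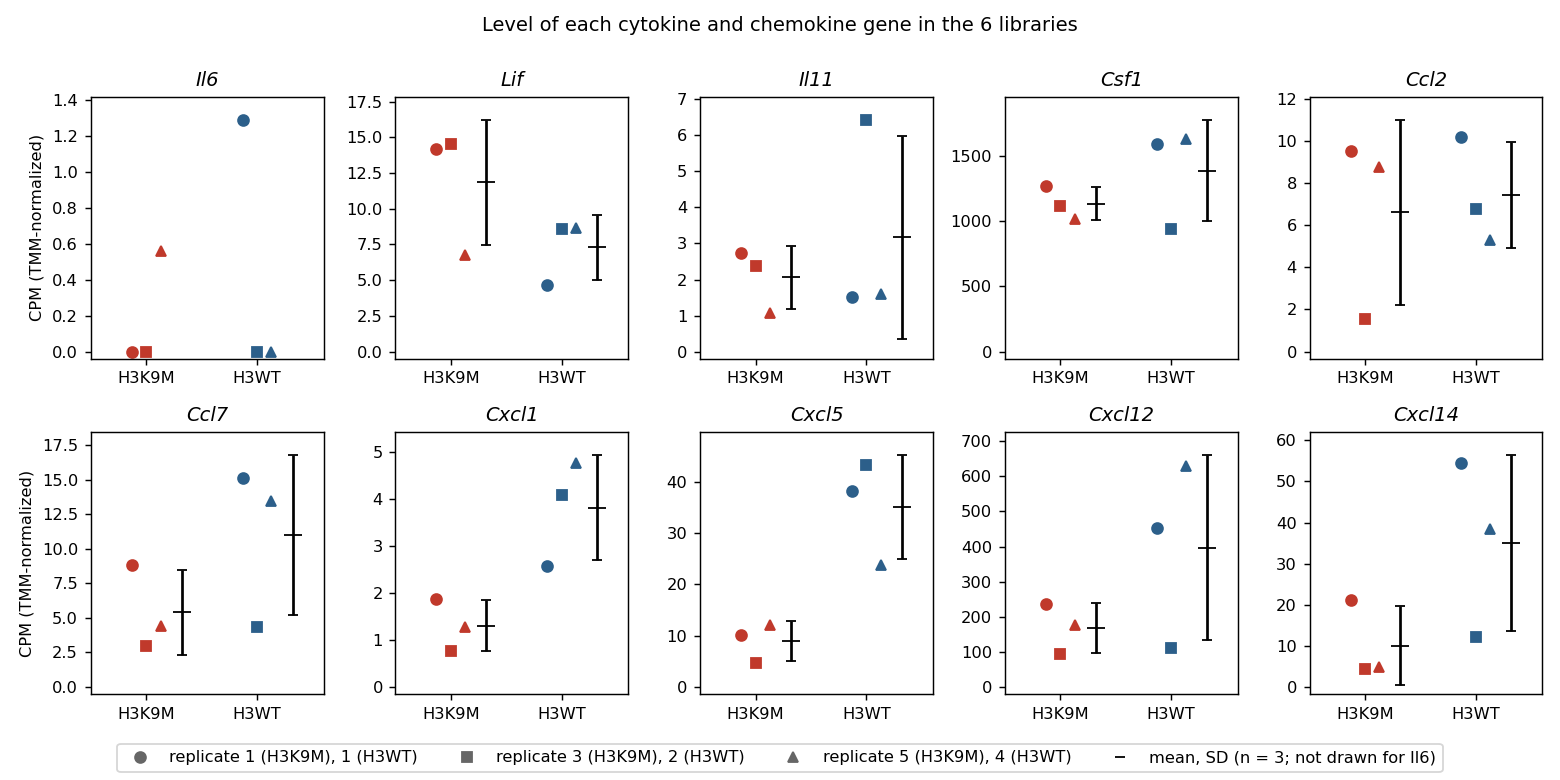
Level of each of the 10 genes (vertical axis, TMM-normalized CPM, a separate linear scale per gene) in the H3K9M and H3WT libraries, with 1 point per library and, beside the points, the mean and SD over 3 libraries (not drawn for Il6). Cxcl1 and Cxcl5 are the genes whose groups do not overlap, and Cxcl12 spans 110.1 to 628.3 CPM within H3WT.

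Levels differed by orders of magnitude between the genes when scaled to transcript length. Csf1 had the highest level in both groups, with 272 ± 30.8 CPM per kilobase in H3K9M and 332 ± 93.4 CPM per kilobase in H3WT (SD, n = 3 each). Over the 6 libraries it exceeded 98.8% of the tested genes on this scale. Cxcl12 followed with 29.9 ± 12.5 and 70.5 ± 46.8 CPM per kilobase, above 91.1% of tested genes. In H3K9M the range of Cxcl12 lay apart from the next gene, Ccl7, and each neighbouring pair in the order Ccl7, Ccl2, Cxcl14, Cxcl5 and Lif overlapped (mean levels 6.73, 6.03, 5.51, 4.79 and 2.94 CPM per kilobase). Il11 and Cxcl1 came below Lif, with 1.06 and 0.699 CPM per kilobase, and overlapped each other but not Lif. In H3WT the order after Cxcl12 was Cxcl14 (19.2), Cxcl5 (18.8), Ccl7 (13.7) and Ccl2 (6.79 CPM per kilobase), and neighbours from Cxcl12 to Ccl2 overlapped. Cxcl1 (2.04), Lif (1.81) and Il11 (1.63 CPM per kilobase) formed a lower set whose neighbours also overlapped. Il6 was last in both groups.

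Cxcl5 and Cxcl1 are neutrophil chemokines of the CXC family and lie 129616 bases apart on chromosome 5 (Cxcl5 at 90759360 to 90761624 and Cxcl1 at 90891241 to 90893115, mm10), with 4 protein-coding genes between them. Cxcl5 had 10.2, 4.59 and 11.99 CPM in H3K9M replicates 1, 3 and 5, and 38.1, 43.3 and 23.7 CPM in H3WT replicates 1, 2 and 4. All H3K9M libraries were below all H3WT libraries, and the mean level in H3WT was 3.93 times that in H3K9M. In edgeR's quasi-likelihood fit the log2 fold change was -1.98 (SE 0.39) with an unadjusted p of 0.00102 and, by Benjamini-Hochberg over all tested genes, an adjusted p of 0.18, which did not pass. By unadjusted p it ranked 77 among the 13761 tested genes. The DESeq2 Wald test called Cxcl5, at an estimate of -1.98 (SE 0.38) and an adjusted p of 6.38e-05, and was the 1 of 13 alternatives that did; over all of them its adjusted p ran up to 0.495.

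Cxcl1 had fewer reads. Its levels were 1.88, 0.773 and 1.28 CPM in H3K9M and 2.58, 4.10 and 4.77 CPM in H3WT, in the same order of replicates, from 16 to 81 counts per library. Again every H3K9M library was below every H3WT library, by the smallest margin between H3K9M replicate 1 and H3WT replicate 1. These had 28 and 46 counts, and the 95% intervals of counting error overlapped (1.25 to 2.71 and 1.89 to 3.44 CPM). For Cxcl1 the log2 fold change of -1.55 (SE 0.57) had an unadjusted p of 0.0257 and an adjusted p of 0.346 in edgeR. The ratio of the mean levels was 2.92. With any 1 library left out the log2 fold change stayed between -1.89 and -1.27.

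Ccl2 and Ccl7 encode the monocyte chemokines MCP-1 and MCP-3 and are neighbours on chromosome 11, with 8258 bases and no other protein-coding gene between them (Ccl2 at 82035571 to 82037453 and Ccl7 at 82045712 to 82047525, mm10). Ccl2 had 9.51, 1.55 and 8.78 CPM in H3K9M and 10.2, 6.80 and 5.30 CPM in H3WT. The groups overlapped, with a 6.15-fold range within H3K9M that came from the low value of replicate 3. EdgeR's estimate on the log2 scale, -0.17 (SE 0.62, adjusted p 0.941), turned to 0.31 without H3K9M replicate 3 and to 0.12 without H3WT replicate 1, and it was -0.61 with limma-voom.

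Ccl7 had 8.84, 2.95 and 4.39 CPM in H3K9M and 15.2, 4.36 and 13.4 CPM in H3WT. H3WT replicates 1 and 4 were above every H3K9M library, while H3WT replicate 2 lay among them. EdgeR gave a log2 fold change of -1.03, with an SE of 0.56, an unadjusted p of 0.105 and an adjusted p of 0.492. With H3WT replicate 2 left out it was -1.41, when the groups no longer overlapped, and it was -1.58 without H3K9M replicate 1. It was closer to 0 without H3K9M replicate 3 (-0.72) or without H3WT replicate 1 (-0.73). Both neighbours were highest in H3WT replicate 1 and lowest in H3K9M replicate 3. They differed in H3WT replicate 4, which was high for Ccl7 and the lowest of its group for Ccl2.

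Cxcl12, also known as stromal cell-derived factor 1, retains progenitor cells in stromal niches, and Cxcl14 is a chemokine of epithelial and stromal tissues. Cxcl12 lies on chromosome 6 at 117168535 to 117181367 and Cxcl14 on chromosome 13 at 56288643 to 56296551 (mm10). Cxcl12 had 235.1, 94.5 and 175.7 CPM in H3K9M and 451.5, 110.1 and 628.3 CPM in H3WT. H3WT replicates 1 and 4 were the highest of the 6 libraries, and H3WT replicate 2 was below H3K9M replicates 1 and 5. The range within H3WT was 5.71-fold, wider than the 2.36-fold ratio of the group means. For Cxcl12 the log2 fold change was -1.24 (SE 0.65, unadjusted p 0.105, adjusted p 0.494, edgeR). It was -1.67 with H3WT replicate 2 left out and -0.74 with H3WT replicate 4 left out.

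Cxcl14 had 21.2, 4.30 and 4.74 CPM in H3K9M and 54.4, 12.04 and 38.5 CPM in H3WT. The overlap came from 1 pair of libraries, since H3K9M replicate 1 lay above H3WT replicate 2. The ratio of the mean levels was 3.47 and the log2 fold change -1.81 (SE 0.82, unadjusted p 0.0689, adjusted p 0.444, edgeR). It was -2.95 without H3K9M replicate 1 and -1.34 without H3WT replicate 1.

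Csf1, the ligand of the macrophage receptor CSF1R, had 1272, 1119 and 1016 CPM in H3K9M and 1592, 938.1 and 1633 CPM in H3WT (chromosome 3, 107741048 to 107760469, mm10). H3WT replicates 1 and 4 were the highest and H3WT replicate 2 the lowest of all 6. EdgeR's estimate on the log2 scale was -0.29 (SE 0.22, adjusted p 0.641), and -0.50 with H3WT replicate 2 left out. It was -0.18 with H3WT replicate 1 left out and -0.15 with H3WT replicate 4 left out. Its spread within H3K9M was the narrowest of the 9 tested genes of the cytokine and chemokine set, with a 1.25-fold range.

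Lif was the 1 tested gene of the set with a higher mean in H3K9M. LIF is a gp130 cytokine that is also used to hold mouse stem cells undifferentiated. Its levels were 14.2, 14.5 and 6.79 CPM in H3K9M and 4.66, 8.56 and 8.66 CPM in H3WT (chromosome 11, 4257557 to 4272514, mm10). H3K9M replicates 1 and 3 were above every H3WT library, and replicate 5 was inside the H3WT range. For Lif the log2 fold change was 0.70 (SE 0.38, unadjusted p 0.107, adjusted p 0.496, edgeR). It was positive in all 13 alternatives, from 0.46 without H3WT replicate 1 to 0.99 without H3K9M replicate 5.

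Il11, a gp130 cytokine of fibroblasts and of bone remodelling, had 2.75, 2.37 and 1.07 CPM in H3K9M and 1.52, 6.43 and 1.59 CPM in H3WT (chromosome 7, 4772373 to 4782859, mm10). H3WT replicate 2 was above every other library, and the other H3WT libraries lay inside the H3K9M range. EdgeR's estimate on the log2 scale, -0.63 (SE 0.73, adjusted p 0.782), turned to 0.41 without H3WT replicate 2.

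Il6 was read in 1 library of each group (chromosome 5, 30013114 to 30019981, mm10). H3K9M replicate 5 had 11 counts (0.561 CPM) and H3WT replicate 1 had 23 counts (1.29 CPM). The other 4 libraries had 0 counts, which at 3 counts of the library total allows up to 0.145 to 0.201 CPM. These limits cover counting error only. The gene was not tested in the filtered table. With every gene that had a count in the fit, edgeR's log2 estimate was -1.15 (SE 2.36, adjusted p 0.883), so that no difference between the groups was detectable.

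**Figure D2:**
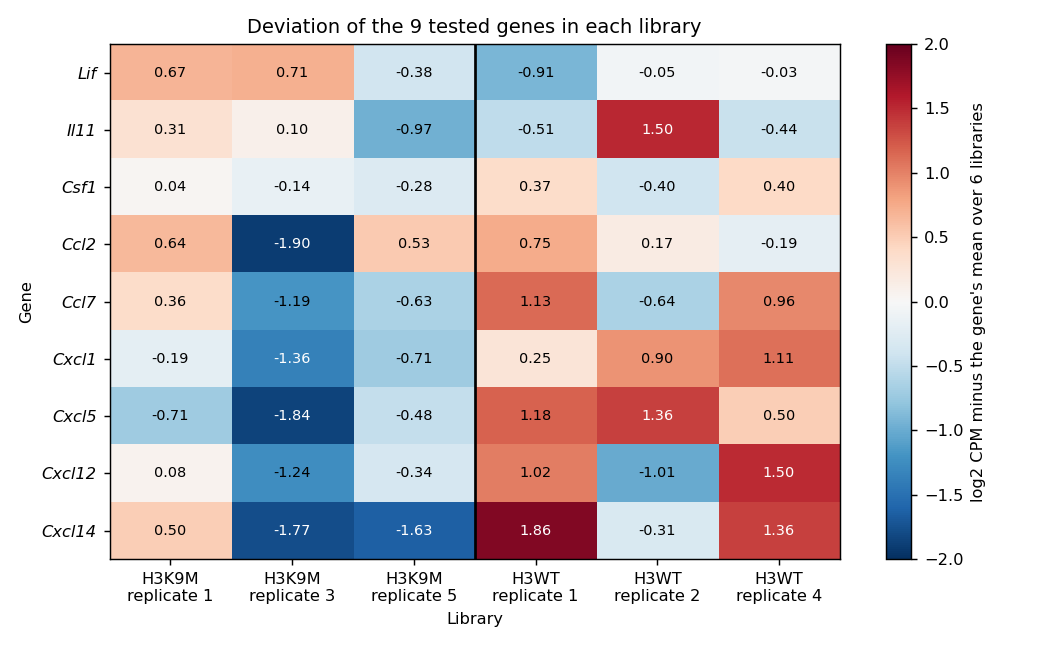
Deviation of each tested gene in each library, as log2 CPM minus the gene's mean over the 6 libraries (colour and printed value; H3K9M libraries left of the line, H3WT libraries right of it). The column of H3K9M replicate 3 is negative for all 6 chemokines and positive for Lif (0.71) and Il11 (0.10), and that of H3WT replicate 2 is negative for Cxcl12 (-1.01), Ccl7 (-0.64) and Csf1 (-0.40) and positive for Il11 (1.5).

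Some libraries stood at the ends of these ranges repeatedly. H3K9M replicate 3 had the lowest level of all 6 libraries for each of the 6 chemokine genes (Ccl2, Ccl7, Cxcl1, Cxcl5, Cxcl12 and Cxcl14), and the highest level of Lif. It was also the lowest for the receptors Il6st, Lifr, Osmr and Il11ra1 and for Cxcl3, a chemokine outside the set. Of the other tested chemokines, Ccl9, Ccl25, Ccl27a, Ccl28 and Cx3cl1 were at their highest there. The share of all tested genes that were lowest in this library was not counted. This library also had the highest sum of skeletal muscle markers (223 CPM). H3WT replicates 1 and 4 were the 2 highest libraries for Csf1, Ccl7, Cxcl12 and Cxcl14. H3WT replicate 2 stood apart from them in these 4 genes but not in Cxcl1 or Cxcl5, where it was on the side of its group. Without H3WT replicate 2 the groups did not overlap in 6 of the 9 genes, Csf1, Ccl7, Cxcl1, Cxcl5, Cxcl12 and Cxcl14, all lower in H3K9M (37.4% of the genes tested in that fit were apart, and 17.9% were apart and lower in H3K9M). That count follows from the order above, since H3WT replicates 1 and 4 were already the highest for Csf1, Ccl7, Cxcl12 and Cxcl14. Cxcl1 and Cxcl5 were apart with all libraries. The same 6 genes then had an unadjusted p under 0.05, against 17.1% of all genes in either direction and 8% with H3K9M lower, and 0 passed the adjusted threshold, which 0.639% of genes passed. Their smallest adjusted p was 0.117, for Cxcl5.

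**Figure D3:**
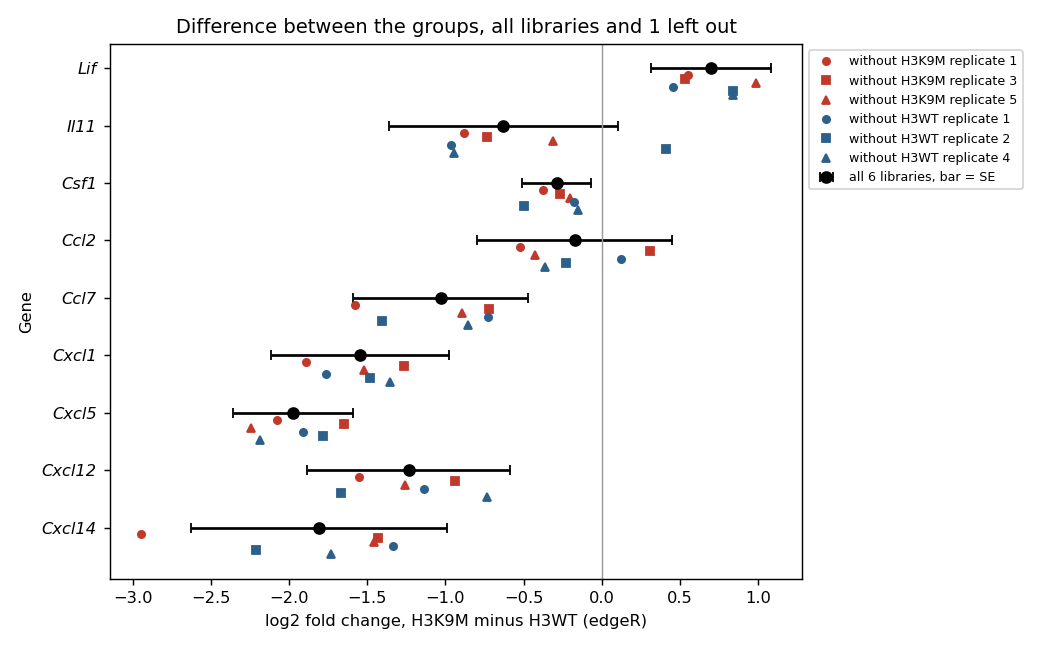
Log2 fold change of H3K9M minus H3WT for the 9 tested genes (horizontal axis, edgeR), with all 6 libraries (black point, bar of 1 SE) and with each library left out in turn (coloured points). Cxcl5 stays between -2.24 and -1.65, while Il11 and Ccl2 have points on both sides of 0.

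Genes with the profile most like that of each cytokine or chemokine across the 6 libraries were found by the root mean square difference of log2 CPM, each gene centred on its own mean. Nearest to Cxcl5 were Fam84a (0.31), Mmp3 (0.36), which encodes the matrix metalloproteinase stromelysin-1, and Adm (0.39), which encodes the vasodilator peptide adrenomedullin. Nearest to Cxcl12 were Jag1 (0.17), a Notch ligand, Adamts5 (0.18), which encodes an aggrecan-cleaving protease, and Mid1 (0.19). Nearest to Ccl7 was Col12a1 (0.17), a fibril-associated collagen, and nearest to Csf1 was Plekho2 (0.04). Nearest to Cxcl14 was Mfap4 (0.32), a microfibril-associated glycoprotein, and nearest to Lif was Gm13157 (0.11). None of the 27 genes nearest to the 9 was another of the 9. With 6 libraries that share depth and group structure these are descriptions only.

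The receptors of these ligands were then read from the same fit. Of the 15 receptor genes 7 were tested and 0 passed the adjusted threshold, while 3 had an unadjusted p under 0.05, all lower in H3K9M. Over all tested genes 5.77% had such a p with the lower mean in H3K9M. Their median log2 fold change was -0.49, against -0.003 over all tested genes, and the median was -0.06 over the 9 receptors in the fit with every gene that had a count. Lifr, the receptor chain for LIF, had 10.5, 5.51 and 8.06 CPM in H3K9M and 31.3, 12.6 and 30.7 CPM in H3WT (log2 fold change -1.64, unadjusted p 0.0034, adjusted p 0.223, edgeR). All H3K9M libraries were below all H3WT libraries, and Lif itself had its higher mean in H3K9M.

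Osmr, the oncostatin M receptor chain that also pairs with gp130, had 125, 89.4 and 104.1 CPM against 196.6, 125.9 and 213.6 CPM (log2 fold change -0.75, adjusted p 0.259). The nearest libraries, H3K9M replicate 1 and H3WT replicate 2, differed by less than 1 CPM. Il6st, which encodes gp130, had 624.8, 364.1 and 708.3 CPM against 955.8, 607.5 and 864.6 CPM (log2 fold change -0.52, adjusted p 0.48), and the groups overlapped. Il11ra1, the IL-11 receptor, was at 35.3 to 41.7 CPM in H3K9M and 38.4 to 43.4 CPM in H3WT, and Il6ra, the IL-6 receptor, was at 0.623 to 4.95 CPM over all libraries. Ackr3, a scavenger receptor of CXCL12, had 42.2, 59.5 and 38.6 CPM against 62.9, 72.1 and 62.7 CPM (log2 fold change -0.49, adjusted p 0.348).

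**Figure D4:**
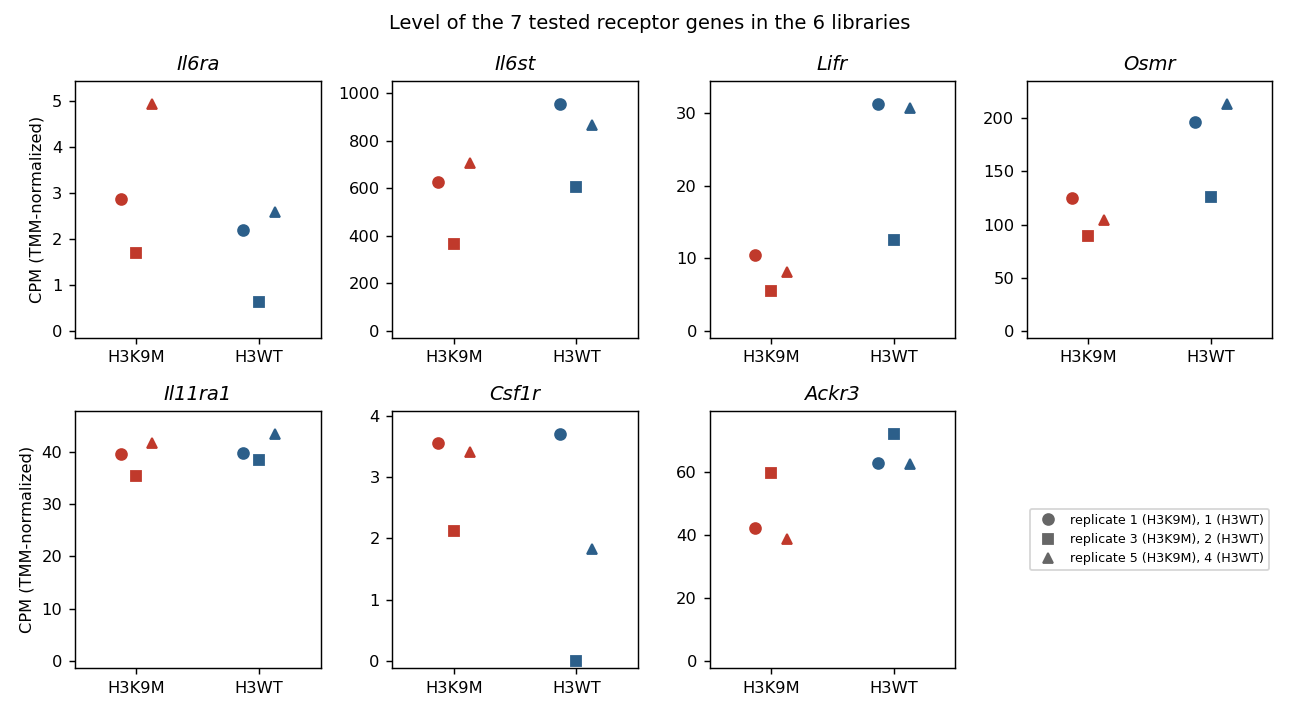
Level of the 7 tested receptor genes (vertical axis, TMM-normalized CPM, a separate linear scale per gene) with 1 point per library in H3K9M and H3WT. Lifr, Osmr and Ackr3 have every H3K9M point below every H3WT point, and Csf1r is between 0 and 3.71 CPM.

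The leukocyte receptors of the chemokines were near or at 0. Ccr1, Ccr2, Ccr3, Cxcr1, Cxcr2 and the atypical receptor Ackr1 had no count in any library, and Cxcr4, the signalling receptor of CXCL12, had 0 to 0.469 CPM. Csf1r, the receptor of CSF1, had 3.55, 2.13 and 3.42 CPM in H3K9M and 3.71, 0 and 1.83 CPM in H3WT.

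Other ligands of the families were mostly unread. Of 32 other chemokine genes 15 had no count in any library and 8 were tested, 7 with a positive and 1 with a negative log2 fold change (median 0.11). Over all tested genes 50.4% had a negative one. Ccl9, a CC chemokine of myeloid recruitment, had 6.30, 7.97 and 6.33 CPM in H3K9M and 0.842, 3.68 and 2.65 CPM in H3WT (log2 fold change 1.52, unadjusted p 0.022, adjusted p 0.328, edgeR). Ccl25 had 3.35, 5.12 and 3.27 CPM against 1.91, 0.934 and 1.41 CPM (log2 fold change 1.46, adjusted p 0.337). In both genes every H3K9M library was above every H3WT library, as in 10.7% of all tested genes. Both had an unadjusted p under 0.05 (edgeR), as did 6.42% of all tested genes with the higher mean in H3K9M. Cxcl3, a neutrophil chemokine related to Cxcl1 and named after its values were seen, had 5.96, 2.66 and 4.03 CPM against 5.67, 17.4 and 3.24 CPM, and the groups overlapped.

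Of 28 other cytokine genes 16 were tested, 8 in each direction, and 0 had an unadjusted p under 0.05, against 12.2% of all tested genes. The 2 with the smallest p were Tnfsf12 (log2 fold change -0.42, adjusted p 0.474), which encodes the cytokine TWEAK, and Il1rn (-0.74, adjusted p 0.484), which encodes the interleukin-1 receptor antagonist. Among ligands known to activate NF-kB (named after their values were seen), Il1b had 0 counts in every library, Il1a had 0 to 0.118 CPM and Tnf 0 to 0.102 CPM. Others were read in every library, with Tnfsf12 at 14.8 to 28.4 CPM, Tnfsf11, which encodes RANKL, at 1.25 to 7.30 CPM and Il18 at 0.867 to 2.86 CPM.

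All 18 genes of the JAK-STAT3 list were tested, 14 with a negative log2 fold change (median -0.32), and 0 passed the adjusted threshold. At an unadjusted p under 0.05 there were 4 lower and 2 higher in H3K9M, against 5.77% lower and 6.42% higher of all tested genes. Junb, a transcription factor gene induced early by gp130 cytokines, was at 97.3, 84.7 and 104.1 CPM in H3K9M and 73.9, 67.9 and 61.8 CPM in H3WT (log2 fold change 0.49, adjusted p 0.239, edgeR). Socs2, a feedback inhibitor, had 14.4, 19.4 and 14.8 CPM against 8.36, 12.8 and 9.07 CPM (0.68, adjusted p 0.351). Socs3, the main feedback inhibitor of gp130 signalling, had 54.9, 31.7 and 47.7 CPM against 76.0, 56.7 and 54.1 CPM (chosen after its values were seen; log2 fold change -0.48, adjusted p 0.444), with overlapping groups.

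The median log2 fold change of the 20 NF-kB pathway genes was -0.09, and 0 passed the adjusted threshold. At an unadjusted p under 0.05, 3 were lower and 0 higher, against 5.77% lower and 6.42% higher of all tested genes. Those with the smallest p were Il1rap, the co-receptor of interleukin-1, with 15.5, 12.1 and 15.4 CPM in H3K9M and 30.5, 19.8 and 35.3 CPM in H3WT (log2 fold change -0.99, adjusted p 0.227, edgeR), and Tnfrsf1b, a tumour necrosis factor receptor (-0.52, adjusted p 0.269). Both had groups that did not overlap. Of 18 NF-kB feedback and target genes 17 were tested, with a median of -0.15. At an unadjusted p under 0.05, 2 were lower and 1 higher, beside the same shares of all tested genes. Mmp3 had 0.804, 0.773 and 1.89 CPM in H3K9M and 5.45, 7.63 and 3.0 CPM in H3WT (log2 fold change -2.20, adjusted p 0.239). Sod2, a mitochondrial antioxidant enzyme, was higher at 51.2 to 57.0 CPM against 41.2 to 46.2 CPM (log2 fold change 0.32, adjusted p 0.371). Of the 17 tested genes, 2 had groups that did not overlap with H3K9M higher and 1 with H3K9M lower. Over all tested genes these shares were 10.7% and 8.68%.

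Of the 9 genes whose proteins bind or cut cytokine mRNAs, 7 had a negative log2 fold change (median -0.25) and 0 passed the adjusted threshold. At an unadjusted p under 0.05 there were 2, both lower in H3K9M, as were 5.77% of all tested genes. Zfp36l1, which encodes a protein that promotes decay of AU-rich mRNAs, had 23.2, 30.5 and 25.8 CPM in H3K9M and 50.1, 34.8 and 65.5 CPM in H3WT (log2 fold change -0.92, adjusted p 0.234, edgeR). Zfp36, its relative tristetraprolin, had 19.8, 14.9 and 20.97 CPM against 28.1, 24.1 and 37.4 CPM (-0.69, adjusted p 0.296). In both genes every H3K9M library was below every H3WT library.

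**Figure D5:**
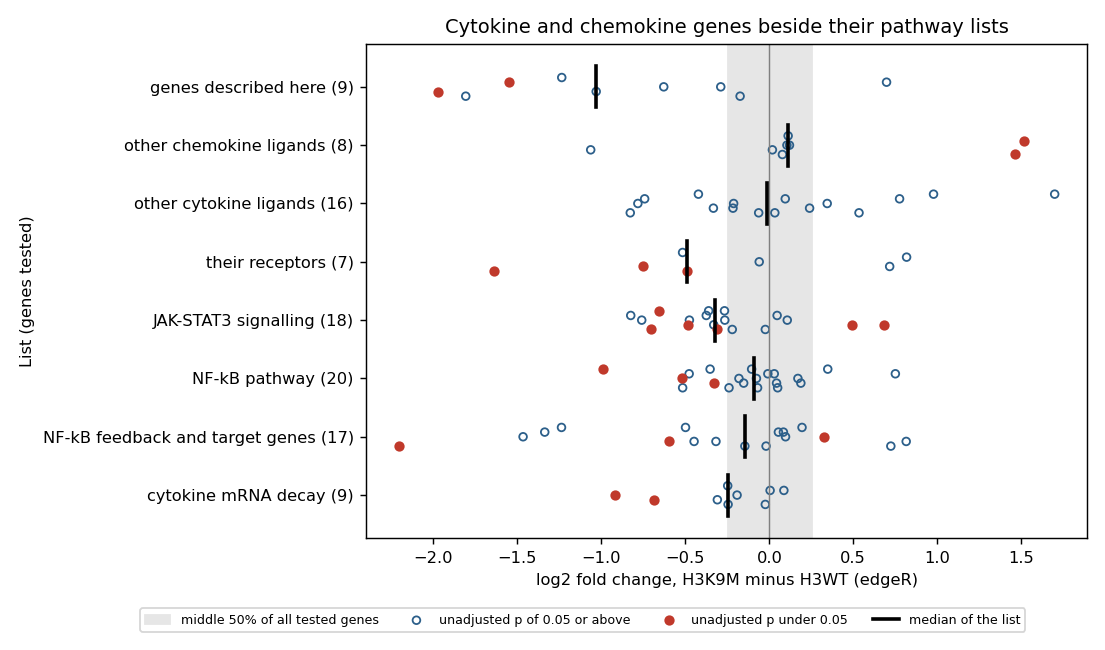
Log2 fold change of H3K9M minus H3WT (horizontal axis, edgeR) for each tested gene of the cytokine and chemokine set and of 7 pathway lists, with filled points for an unadjusted p under 0.05 and a black bar at the median of each list. The shaded band holds the middle 50% of all tested genes, -0.24 to 0.26, and the median of the 9 genes described here is -1.03.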

How the data were processed

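Polyadenylated RNA was sequenced in 6 libraries and the deposited table holds a raw read count for each gene symbol and library, with 0 columns of other samples. Per the submitters' processing notes the build was mm10 and the tools HISAT2, featureCounts and DESeq2; versions, annotation and strand setting are not given in the sources used here. No exon of the 10 genes overlaps another gene in GENCODE M21.

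The tests were made with edgeR 4.0.16 in R 4.3.3: filterByExpr, TMM scaling, a robust quasi-likelihood fit on all 6 libraries with no term besides genotype, and Benjamini-Hochberg adjustment over 13761 genes at a threshold of 0.05. The SE is the size of the log2 fold change over the square root of F. CPM values are TMM-normalized, and CPM per kilobase uses the longest GENCODE M21 transcript. Centred profiles use log2 CPM with a prior count of 2. Alternatives were DESeq2 1.42.0, limma-voom (limma 3.58.1), other scalings and filters, a fit without robust estimation and leaving out each library. Named genes were the 10 members, their receptors, the 2 lowest p-values of each pathway list and the 3 nearest profiles. The members and lists were chosen with earlier results of these data known. In 3 simulations with 200 of 13761 genes changed, edgeR recovered 36% of the 2-fold changes and 73.7% of the 4-fold changes, and 8.14% of its calls were false.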

Additional observations from a re-analysis of the deposited data

How the results depend on the processing

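No paired analysis was possible because the groups share only replicate number 1. The number of genes past an adjusted p of 0.05 was 0; it was 367 with DESeq2, 36 when all genes with a count were kept, and 0 to 91 when a library was left out. Of the 9 cytokine and chemokine genes DESeq2 called 1, Cxcl5, and 0 passed in every other alternative run. The number with an unadjusted p under 0.05 was 2, and 1 to 6 when a library was left out. It was 3, with Cxcl14 added, in DESeq2, in limma-voom and in edgeR without robust estimation, where the share of all genes was not counted. Of all tested genes 12.2% had such a p, and 17.1% without H3WT replicate 2. The number whose groups did not overlap was 2, and 2 to 6 when a library was left out. Of all tested genes 19.4% were apart, and 37.4% without H3WT replicate 2. Signs turned for Il11 without H3WT replicate 2 (0.41; lowest -0.96 with another library left out) and for Ccl2 without H3K9M replicate 3 (0.31) or H3WT replicate 1 (0.12; lowest -0.53 with another library left out, and -0.61 with limma-voom). List medians near 0 also turned. That of other chemokine ligands was -0.036 without H3K9M replicate 3 and up to 0.41 with another library left out. That of other cytokine ligands was 0.038 when scaled by library size alone, 0.068 when all genes with a count were kept, 0.056 with DESeq2, 0.048 with limma-voom and -0.22 where each library had to hold 10 counts or more (-0.015 as reported), and ran from -0.12 to 0.025 (without H3K9M replicate 1 or H3WT replicate 4 it was above 0) when a library was left out. That of NF-kB feedback and target genes was 0.024 without H3K9M replicate 5 and 0.079 without H3WT replicate 2, and at lowest -0.32 without H3WT replicate 1. For these changes the cause was not tested. Depth limits Il6, Cxcl1 and Il11 most, with at most 23, 81 and 124 counts in a library.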

Other observations

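Several secreted cytokines outside the 10 genes were also read in these cells, and those named here were chosen after their values were seen. Clcf1, which encodes a gp130 ligand, had 24.7, 27.1 and 26.8 CPM in H3K9M replicates 1, 3 and 5 against 27.2, 18.2 and 36.8 CPM in H3WT replicates 1, 2 and 4. Ppbp, a chemokine gene best known from platelets, had 46.8, 18.9 and 31.8 CPM against 25.1, 47.2 and 17.2 CPM, while Pf4, another platelet chemokine gene, had no count in any library. Il34, the other ligand of CSF1R, had 4.49, 10.6 and 2.45 CPM in H3K9M and 2.08, 0.208 and 3.12 CPM in H3WT (log2 fold change 1.70, adjusted p 0.486, edgeR quasi-likelihood test). For each of these genes with counts the groups overlapped.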
